A study of Mus musculus with 6 samples.

Results

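Liver mRNA of 6 fatty acid desaturase genes, *Fads1*, *Fads2*, *Fads3*, *Fads6*, *Scd1* and *Scd2*, was examined in mice with and without hepatic deletion of *Surf4*. The genes were taken by symbol from a table of 35540 gene symbols, and 23 of its 116748 transcripts belong to them. All 6 passed the filter on low values, which 14189 genes passed in all. They were chosen by their TPM difference between genotypes in these same mice, several of them being already known to be lower in *Alb-Cre+* livers, so their differences between genotypes are given as a description. Counts of p-values from the fit over all genes are printed for these 6 genes only beside the same counts over all genes, and nothing is read from them.

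Desaturases place double bonds into fatty acyl-CoA in the membrane of the endoplasmic reticulum, with electrons passed on by cytochrome b5. FADS2 and FADS1 act in turn, with elongation between them, to make arachidonic acid and longer polyunsaturated fatty acids from the essential fatty acids of the diet. SCD1 and SCD2 make oleic and palmitoleic acid from saturated fatty acids, and in the liver the mRNA of *Scd1* is known for rising with carbohydrate feeding and falling on fasting.

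All 6 mice were *Surf4 fl/fl*, with both alleles floxed, and 3 of them carried the Cre transgene (*Alb-Cre+*) while their 3 littermate controls did not (*Alb-Cre-*). Cre was expressed from the *Albumin* promoter, which is active in hepatocytes, to excise exon 2 of *Surf4*, the gene of a cargo receptor for secreted proteins, so the other cells of the liver keep the gene. The mouse numbered 2 was the female of each genotype, and those numbered 1 and 3 were males. The mice were kept on a chow diet, and the study's methods give an overnight fast before samples were collected. The age of the sequenced mice is not stated for these livers.

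*Surf4* was at 92.5, 94.5 and 92.5 TPM (a length-corrected share of all transcripts, scaled to add up to 1000000 per mouse) in the *Alb-Cre-* replicates 1 to 3. It was at 59.0, 71.8 and 54.3 TPM in the *Alb-Cre+* replicates 1 to 3. These values are sums over all transcripts listed for *Surf4*, so they do not separate excised mRNA from intact mRNA. *Ddx3y*, a gene of the Y chromosome, was at 0 TPM in both females and at 19.3 to 22.3 TPM in the males. Between 10059 and 11125 genes reached 1 TPM in a mouse. Read numbers cannot be recovered from TPM, so the depth behind each value is unknown. The livers were bulk samples, in which fewer cells of a type and less RNA per cell cannot be told apart.

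Controls held the 6 mRNAs at very different levels, which TPM allows to be compared between genes because it is corrected for length. The order of the means in *Alb-Cre-* livers was *Fads2* (194 ± 22.5 TPM, SD, n = 3), *Scd1* (124 ± 108), *Fads1* (95.1 ± 22.1), *Fads6* (29.1 ± 5.56), *Scd2* (0.693 ± 0.231) and *Fads3* (0.495 ± 0.137). The single mice of *Scd1* spanned those of *Fads2* and *Fads1*, and *Scd2* and *Fads3* overlapped, so those neighbours in the order were not separated. In *Alb-Cre+* livers the first 4 means were 71.4 ± 18.1 TPM for *Fads2*, 46.4 ± 16.4 for *Fads1*, 36.3 ± 37.6 for *Scd1* and 28.7 ± 5.78 for *Fads6*, and each overlapped with the next. Added together, the 6 genes made up 380, 416 and 532 TPM in the control replicates 1 to 3. In the *Alb-Cre+* replicates 1 to 3 the sum was 176, 193 and 183 TPM, and the genotypes did not overlap.

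**Figure D1:**
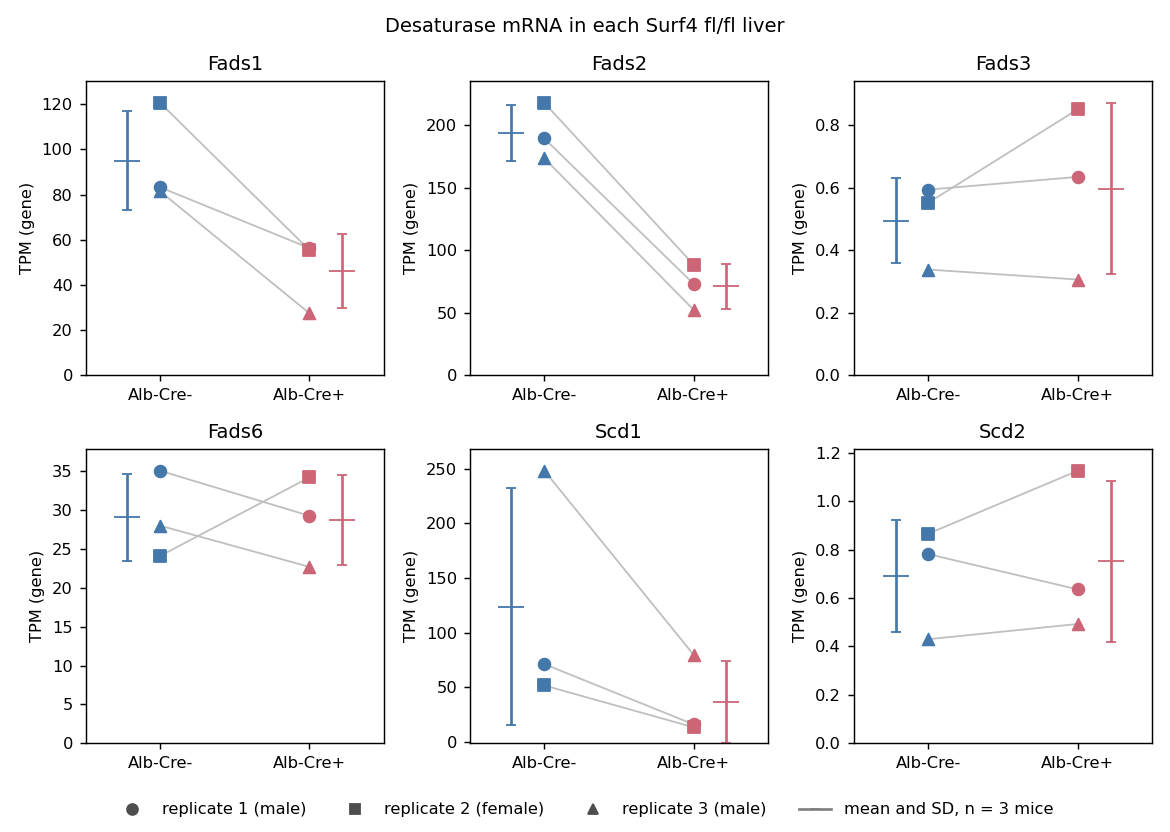
TPM of each desaturase gene in each liver, with *Alb-Cre-* in blue and *Alb-Cre+* in red, marker shape for the replicate number, grey lines joining same-numbered mice, and bars for the mean and SD (n = 3), each panel with its own axis. *Fads1* and *Fads2* are lower in every *Alb-Cre+* mouse, *Scd1* is lower within each same-numbered pair, and *Fads3*, *Fads6* and *Scd2* overlap.

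*Fads2* encodes the delta-6 desaturase, which opens the polyunsaturated pathway. It was at 189, 218 and 174 TPM in the control replicates 1 to 3. It was at 73.2, 88.5 and 52.5 TPM in the *Alb-Cre+* replicates 1 to 3. The lowest control mouse lay well above the highest *Alb-Cre+* mouse, and replicate 2, the female, was the highest of each genotype. The difference between the means of log2(TPM + 0.1), the scale of all log2 differences given here, was -1.47 (SE 0.21). Transformed back from that scale, the geometric mean of *Alb-Cre+* livers was 36.2% of that of the controls. Within same-numbered mice the log2 difference was -1.37, -1.30 and -1.73, so the 3 pairs lay close together. The SD of the 3 pair differences of *Fads2*, 0.228, was smaller than the median over all genes tested, 0.297.

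*Fads1* encodes the delta-5 desaturase, the next double bond of the same pathway. It was at 83.2, 121 and 81.4 TPM in the control replicates 1 to 3. It was at 56.3, 55.4 and 27.5 TPM in the *Alb-Cre+* replicates 1 to 3. The genotypes did not overlap, although the gap between the nearest mice was narrower than for *Fads2*. The geometric mean of *Alb-Cre+* livers was 47.2% of that of the controls (log2 difference -1.08, SE 0.31). The pairs differed more from each other than those of *Fads2*, with log2 differences of -0.56, -1.12 and -1.57. The ratio of *Fads2* to *Fads1* TPM was 2.28, 1.81 and 2.13 in the control replicates and 1.30, 1.60 and 1.91 in the *Alb-Cre+* replicates, which overlap.

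*Scd1* encodes the main delta-9 desaturase of the liver. It was at 71.1, 51.6 and 248 TPM in the control replicates 1 to 3. It was at 16.0, 13.3 and 79.7 TPM in the *Alb-Cre+* replicates 1 to 3. The genotypes overlapped, because replicate 3 of the *Alb-Cre+* mice stood above replicates 1 and 2 of the controls, and replicate 3 was the highest and replicate 2 the lowest in both genotypes. The geometric mean of *Alb-Cre+* livers was 26.6% of that of the controls. The log2 difference was -1.91 (SE 0.81), which became -2.72 without *Alb-Cre+* replicate 3 and -1.23 without *Alb-Cre-* replicate 3. Within same-numbered mice the log2 difference was -2.15, -1.95 and -1.64, an SD of 0.256.

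*Scd1* therefore varied far more among mice of 1 genotype than between the pairs in its genotype difference. Its SD within genotypes was 1.31 log2 units, at the 97.2 percentile of all genes tested, and its 6 values spanned 18.7-fold from the lowest to the highest. The SE of its log2 difference was 0.13 with the replicate block, a term for the pair of same-numbered mice, which is 0.157 of the SE without that term. Over all genes tested, 0.247% had a smaller ratio, and the median ratio was 0.742. The SD of the pair differences of *Scd1* was not unusual, as 43.1% of genes had a smaller one. The low ratio thus goes with its wide spread within genotypes. It is a description, because the genes were chosen by their genotype difference in these mice. The corresponding ratio was 0.571 for *Fads2*, 0.642 for *Fads1* and 0.906 for *Fads6*. *Scd1* made up 46.7% of the summed TPM of the 6 genes in replicate 3 of the controls and 43.5% in replicate 3 of the *Alb-Cre+* mice, but between 6.89% and 18.7% in the other 4 mice.

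**Figure D2:**
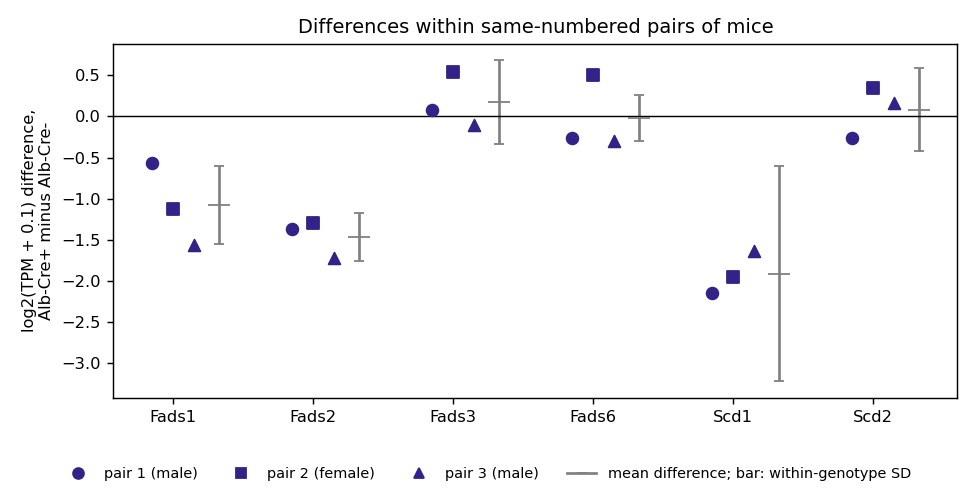
Difference in log2(TPM + 0.1), *Alb-Cre+* minus *Alb-Cre-*, of each desaturase gene within each same-numbered pair (points), with the mean difference and the SD within genotypes (grey bars). The 3 pairs of *Scd1* lie between -2.15 and -1.64 although its SD within genotypes is 1.31, while *Fads3*, *Fads6* and *Scd2* have pairs on both sides of 0.

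*Scd2* encodes another delta-9 desaturase, best known from brain and early life, and stood at a low level here. It was at 0.781, 0.866 and 0.430 TPM in the control replicates 1 to 3 and at 0.636, 1.13 and 0.493 TPM in the *Alb-Cre+* replicates 1 to 3. The genotypes overlapped, with a log2 difference of 0.08 (SE 0.40) and pairs on both sides of 0. The other delta-9 family members in the table were lower still and did not pass the filter, *Scd3* at 0.0137 to 0.0589 TPM and *Scd4* at 0 to 0.0273 TPM. *Fads2b* was listed at 0 in all 6 mice. Of the stretches of 31 bases in the main *Scd1* transcript, 7.96% also occur in a transcript of another desaturase gene, against 6.21% for *Scd2*, 0.769% for the full-length *Fads2* transcript and 0% for the main *Fads1* transcript. How reads from such stretches were shared out between *Scd1* and *Scd2* was not examined.

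*Fads3*, a desaturase gene of the same cluster as *Fads1* and *Fads2* that is linked to sphingoid bases, was at 0.595, 0.553 and 0.339 TPM in the control replicates and at 0.635, 0.852 and 0.307 TPM in the *Alb-Cre+* replicates. *Fads6*, whose substrate is not well defined, was at 35.1, 24.1 and 28.0 TPM in the control replicates and at 29.3, 34.2 and 22.7 TPM in the *Alb-Cre+* replicates. Both overlapped between the genotypes, with log2 differences of 0.17 (SE 0.41) and -0.02 (SE 0.21). The *Fads6* values were the tightest of the 6 genes, the highest mouse being 1.55 times the lowest.

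Counted over the 6 genes, 2 (*Fads1* and *Fads2*) had all *Alb-Cre+* mice below all controls, as did 2.71% of all genes tested, and 0 had all of them above, as did 2.18%. In the limma fit 0 of 6 had an adjusted p under 0.01, as did 0% of all genes. The study used DESeq2 and reported changed genes at a false discovery rate under 0.01, among them several lower genes of fatty acid biosynthesis. In the limma fit on TPM the smallest adjusted p of any gene was 0.456, and that of *Surf4* itself was 0.9999. The 0 calls therefore do not show that no gene changed. Without adjustment, 250 genes had a limma p under 0.05. At that unadjusted p 2 of 6 were lower, beside 0.958% of all genes, and 0 of 6 higher, beside 0.803%. With the replicate block 3 of 6 (*Fads1*, *Fads2* and *Scd1*) were lower at an unadjusted p under 0.05, beside 2.42% of all genes, and 0 of 6 higher, beside 2.28%. The block raised the number of such genes to 666, and the smallest adjusted p in that fit was 0.0580. The median log2 difference was -0.55 over the 6 genes and -0.0017 over all genes tested. These counts describe how the genes were selected. The p-values without the block rest on the spread between these mice within a genotype, and those with it on the spread of the pair differences. Both also draw on the variances of all genes tested.

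Expression of *Fads2* was divided between 3 annotated transcripts, and these differed in direction. The full-length transcript (ENSMUST00000025567.9, 12 exons) was at 186, 213 and 170 TPM in the control replicates 1 to 3 and at 64.7, 80.8 and 43.3 TPM in the *Alb-Cre+* replicates 1 to 3. A shorter transcript with an internal start (ENSMUST00000238023.2, 8 exons, annotated as a processed transcript with no reading frame) was at 3.33, 3.05 and 2.64 TPM in the control replicates 1 to 3 and at 8.11, 7.12 and 8.85 TPM in the *Alb-Cre+* replicates 1 to 3. Every *Alb-Cre+* mouse was thus below every control for the full-length transcript and above every control for the internal-start transcript. The log2 difference was -1.63 for the former and 1.39 for the latter, with pairs at 1.26, 1.20 and 1.71 for the latter. The internal-start transcript made up 1.76%, 1.40% and 1.52% of *Fads2* TPM in the control replicates and 11.1%, 8.04% and 16.9% in the *Alb-Cre+* replicates. Its share was highest in the *Alb-Cre+* mouse with the least *Fads2*, replicate 3, and lowest in the *Alb-Cre+* mouse with the most, replicate 2. The third transcript (ENSMUST00000235937.2, 6 exons) was at 0.296 to 1.74 TPM in the controls and at 0.281 to 0.583 TPM in the *Alb-Cre+* mice, which overlap.

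**Figure D3:**
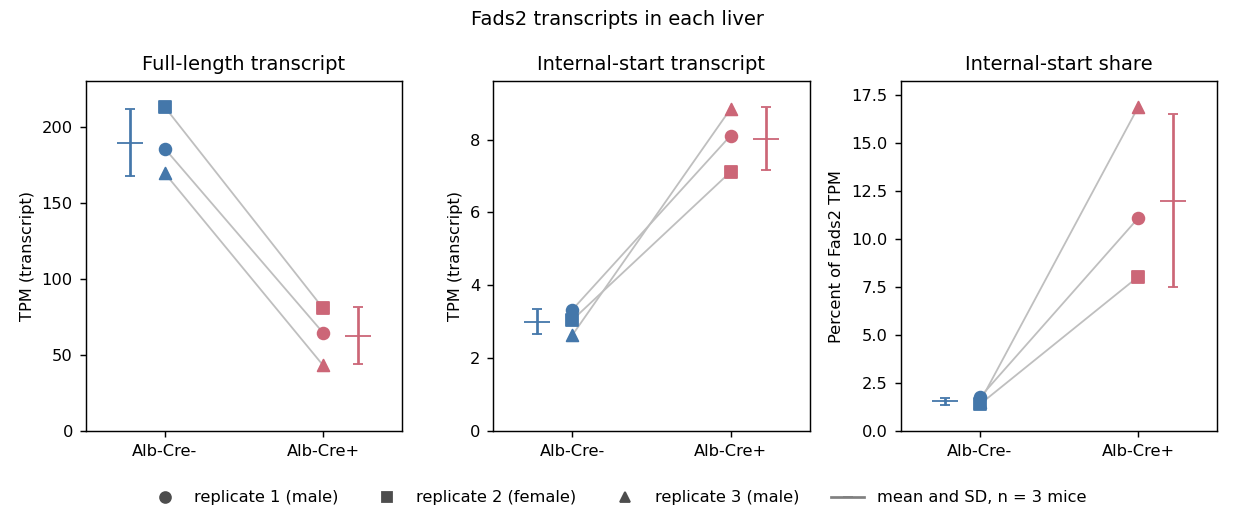
TPM of the full-length and of the internal-start *Fads2* transcript, and the internal-start transcript as a percent of *Fads2* TPM, in each liver, with marker shape for the replicate number and bars for the mean and SD (n = 3). The full-length transcript is lower in all 3 *Alb-Cre+* mice (43.3 to 80.8 against 170 to 213 TPM), while the internal-start transcript and its share are higher in all 3.

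The genomic position tells the 2 transcripts apart. On GRCm38, the build of the GENCODE M21 annotation, *Fads2* lies on the minus strand at chr19:10062765-10101746. The annotated internal start lies 30559 bases downstream of the full-length start, in the intron between exons 5 and 6, and 6 of the 8 exons of the shorter transcript are the same as exons of the full-length one. What sets the shorter transcript apart is its first exon of 109 bases at chr19:10071079-10071187, which takes the place of full-length exon 5 (126 bases, chr19:10082565-10082690) before exon 6 (61 bases, chr19:10070564-10070624). Both junctions are shown 5′ to 3′ because reads across them are among those that can tell the transcripts apart. Lower case marks the exon before the junction and capitals mark exon 6, which both transcripts hold.
Fads2-internal: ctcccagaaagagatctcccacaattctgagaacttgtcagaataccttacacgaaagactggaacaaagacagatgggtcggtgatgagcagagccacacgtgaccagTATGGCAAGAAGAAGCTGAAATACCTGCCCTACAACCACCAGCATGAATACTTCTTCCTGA
Fads2-full: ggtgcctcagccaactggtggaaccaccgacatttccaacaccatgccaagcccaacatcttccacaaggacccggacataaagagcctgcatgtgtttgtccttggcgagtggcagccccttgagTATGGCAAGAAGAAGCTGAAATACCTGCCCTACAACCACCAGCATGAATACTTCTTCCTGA
Of the 849 stretches of 31 bases in the internal-start transcript, 107 occur in no other transcript of the 6 genes, so most of its 879 bases are shared with the full-length transcript and its TPM rests on how the quantification model divides reads. The deposited transcript version numbers are later than those of GENCODE M21, from which the exons and sequences were read. The part of the division of reads in the difference was not tested.

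**Figure D4:**
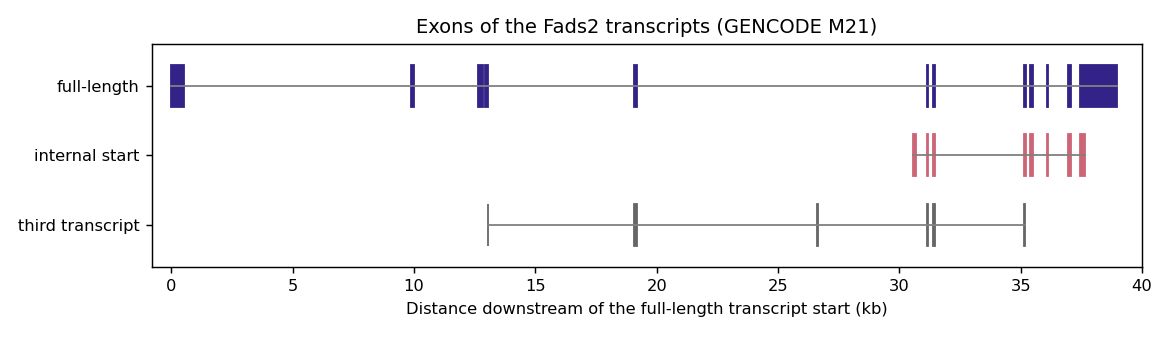
Exons (boxes) and introns (lines) of the 3 annotated *Fads2* transcripts, drawn to scale as distance in kb downstream of the full-length transcript start. The internal-start transcript begins 30559 bases downstream, and 6 of its 8 exons are the same as exons of the full-length transcript, while its last exon covers part of the last full-length exon.

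Among 4626 genes with 2 or more transcripts at a mean of 1 TPM or more, 18 (0.389%) had 1 transcript with all *Alb-Cre+* mice above and another with all *Alb-Cre+* mice below the controls, and *Fads2* was one of them. Because *Fads2* was chosen as lower and is mostly full-length transcript, the lower side of its pattern follows from that choice. The share over all genes is thus no measure of how rare its pattern is. *Fads1* and *Scd1* also had 2 transcripts at that level and were not among the 18. *Fads3*, *Fads6* and *Scd2* did not have 2 and could not be counted. The main transcript of *Fads1* (ENSMUST00000010807.6) made up 94.1% to 95.5% of the gene in every mouse, and the next (ENSMUST00000236594.2) was also lower in every *Alb-Cre+* mouse, at 3.98, 4.02 and 3.66 against 2.82, 3.02 and 1.13 TPM. The main transcript of *Scd1* (ENSMUST00000041331.4) made up 95.0% to 100% of the gene, and that of *Fads6* (ENSMUST00000056153.8) 99.2% to 99.7%. *Scd2* had all its TPM in 1 transcript. *Fads3*, at its low level, had between 46.1% and 100% of its TPM in its main transcript.

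Genes that lie together in the genome did not all show the same pattern. *Fads1* (chr19:10182888-10196877, plus strand), *Fads2* and *Fads3* (chr19:10041569-10060110, plus strand) form 1 cluster, in which *Fads1* and *Fads2* were lower and *Fads3* overlapped between genotypes. *Scd1* (chr19:44394455-44407879, minus strand) and *Scd2* (chr19:44293674-44306864, plus strand) lie together with *Scd3* and *Scd4* elsewhere on chromosome 19, and *Fads6* lies alone on chromosome 11 (chr11:115279622-115297663, minus strand). The 12 nearest tested protein-coding genes beside these 3 places had log2 differences of -0.16 to 0.18, and 0 of the 12 had an unadjusted p under 0.05. Over all genes tested 0.958% were lower and 0.803% higher at that p, so 0 of 12 says little.

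The comparison of the sexes, with genotype in the limma model, did not choose the genes. Its fit took the 6 mice as independent, although same-numbered mice were alike and the contrast sets the female pair against the male pairs. The p-values and confidence intervals for sex leave out this pairing, so they may be too small. In that fit 0 of 6 had an adjusted p under 0.01, beside 0.514% of all genes, and 1 of 6 had an unadjusted p under 0.05, beside 28.7% of all genes. That gene was *Fads2*, higher in the females by 0.39 (95% confidence interval 0.0078 to 0.77, limma adjusted p = 0.167), and the female was the highest mouse of each genotype. *Scd1* was lowest in the female of each genotype, with a female minus male log2 difference of -1.39 and a confidence interval of -3.09 to 0.31 (limma adjusted p = 0.247). For *Scd2* the difference was 0.70 (-0.06 to 1.45, limma adjusted p = 0.202), with the female highest in each genotype. *Fads1*, *Fads3* and *Fads6* differed by 0.52, 0.52 and 0.02. With 1 female per genotype, sex and replicate number 2 cannot be told apart. The females also had the highest summed TPM of 8 Kupffer cell and macrophage markers, 580 and 633 against 168 to 250 in the males, and of 8 sinusoidal endothelial markers, 220 and 243 against 100.2 to 172. The part of these cells in the values of *Scd2* was not tested.

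Cell type markers were also set against the genotype differences. The 8 hepatocyte markers, with *Alb* at 38059 to 55647 TPM, summed to 87750 to 100274 TPM in the controls and to 67463 to 92923 TPM in the *Alb-Cre+* mice, and 1 of the 8 had an unadjusted p under 0.05. Of the other 8 marker lists (Kupffer cell, stellate cell, endothelial cell, cholangiocyte, adipocyte, lymphocyte, blood and pancreas), 0 had a gene at that p in the fit without the block. Over all genes tested 0.958% were lower and 0.803% higher at that p, so a count of 0 in such short lists says little. Adipocytes are rich in *Scd1* mRNA, and the 5 adipocyte markers summed to 0.225 to 0.873 TPM in the controls and to 0.336 to 0.377 TPM in the *Alb-Cre+* mice, with *Lep* at 0 in all 6. Only 2 of these 5 markers passed the filter on low values, and the part of adipocytes in the values of *Scd1* was not tested.

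Genes that work beside the desaturases were counted in lists, of which none had a gene with an adjusted p under 0.01. Over all genes tested, 0.958% were lower and 0.803% higher at an unadjusted p under 0.05. A count of 0 in lists this short, here and below, therefore says little. Of the 12 tested genes of fatty acid elongation, 2 were lower at an unadjusted p under 0.05 and 0 higher, with a list median of -0.10. Those were *Elovl2* and *Elovl5*, the elongases of polyunsaturated fatty acids, whose substrates come from *Fads2* and *Fads1*. *Elovl2* was at 264, 312 and 230.1 TPM in the control replicates and 86.2, 83.0 and 54.2 TPM in the *Alb-Cre+* replicates (log2 difference -1.87, SE 0.21, limma adjusted p = 0.456). *Elovl5* was at 280.2, 506 and 146 TPM in the control replicates and 128, 144 and 67.3 TPM in the *Alb-Cre+* replicates (-1.35, SE 0.48). Among the controls, replicate 2 had the most and replicate 3 the least of both elongases, as they had of *Fads2*. Among the *Alb-Cre+* mice replicate 3 again had the least of each. There *Elovl5* and *Fads2* were highest in replicate 2, but *Elovl2* was highest in replicate 1.

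Electron supply and fatty acid use had list medians near 0. Of the 5 tested genes of the cytochrome b5 system, which hands electrons to desaturases, 0 had an unadjusted p under 0.05 and the median was -0.06. Of the 13 tested genes of acyl-CoA activation, peroxisomal shortening and phospholipid uptake, 0 did, with a median of -0.06. Among 4 tested desaturases outside the 6 genes, *Degs1*, the desaturase of ceramide synthesis, had all *Alb-Cre+* mice below all controls (60.6 ± 6.31 against 49.6 ± 3.52 TPM, SD, n = 3, log2 difference -0.29).

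De novo lipogenesis, which makes the saturated fatty acids that SCD1 uses, had its median on the other side of 0 from *Scd1*. Of its 13 tested genes 11 were higher in *Alb-Cre+* livers, with a median of 0.24. At an unadjusted p under 0.05, 5 of the 13 were higher, beside 0.803% of all genes tested, and 0 lower, beside 0.958%. The pair with the smallest p was *Thrsp*, which regulates lipogenesis, and *Pklr*, the liver pyruvate kinase. *Thrsp* was at 15.1, 19.7 and 15.4 TPM in the control replicates and 87.0, 31.1 and 86.2 TPM in the *Alb-Cre+* replicates (log2 difference 1.88, SE 0.40, limma adjusted p = 0.9999). *Pklr* was at 45.5, 36.2 and 23.7 TPM in the control replicates and 67.8, 79.8 and 59.3 TPM in the *Alb-Cre+* replicates (1.01, SE 0.25). *Fasn*, the fatty acid synthase, was at 5.62 ± 2.75 TPM in the controls and 13.6 ± 2.47 TPM in the *Alb-Cre+* mice (SD, n = 3), with no overlap. *Scd1* and *Fasn* thus lay on opposite sides of 0 in all 3 pairs.

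**Figure D5:**
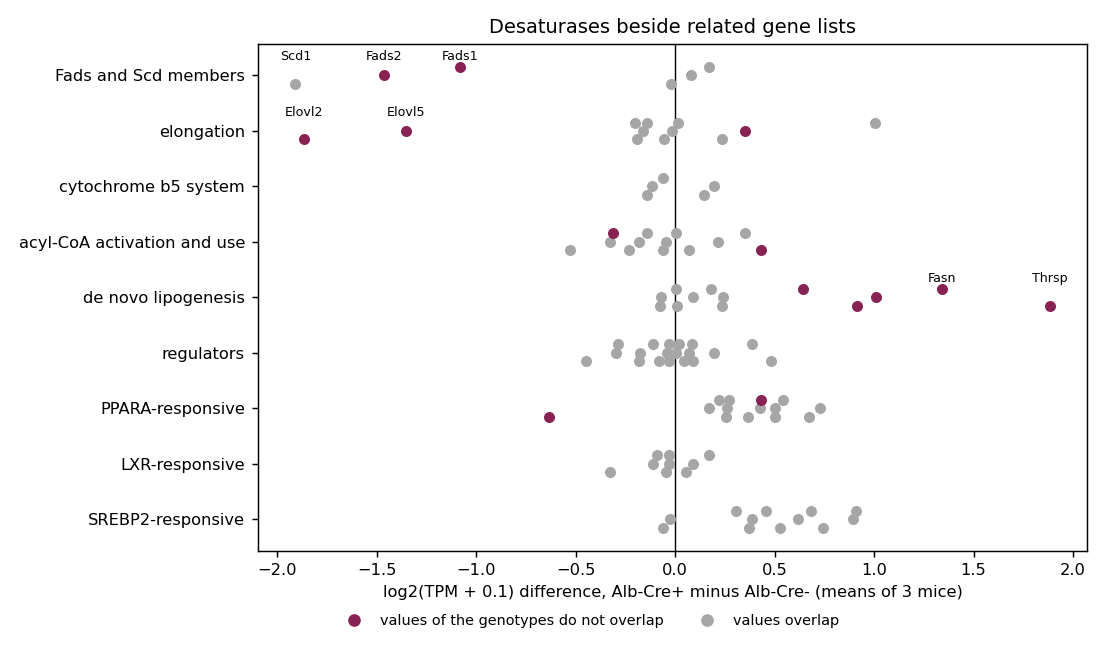
Mean difference in log2(TPM + 0.1), *Alb-Cre+* minus *Alb-Cre-* (3 mice each), of every tested gene of the desaturases and of 8 related lists, with purple points for genes whose genotypes do not overlap and vertical offsets only to separate points. *Fads1*, *Fads2*, *Scd1*, *Elovl2* and *Elovl5* lie below -1, while *Thrsp*, *Fasn* and *Pklr* of de novo lipogenesis and *Elovl3* of elongation, whose genotypes overlap, lie above 1.

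Regulators of the desaturases were split in direction. Of 19 tested transcription factors and regulators 9 were higher and 10 lower, 0 at an unadjusted p under 0.05, with a median of -0.03. *Srebf1*, whose product SREBP1 drives *Scd1*, *Fads1* and *Fads2*, was at 9.93 ± 3.96 TPM in the controls and 9.90 ± 4.51 TPM in the *Alb-Cre+* mice (SD, n = 3). Of the 14 genes responsive to PPARA, another driver of desaturase mRNA, 13 were higher and 1 lower, with a median of 0.40. The lower one, *Cpt1a*, the gate of mitochondrial fatty acid oxidation, was at 243 ± 48.9 TPM in the controls and 156 ± 24.4 TPM in the *Alb-Cre+* mice (SD, n = 3) and was the one of the 14 with an unadjusted p under 0.05. Of the 12 SREBP2-responsive genes 10 were higher, 0 at that p, with a median of 0.49. The pairs did not share this direction, as all 12 were higher within the replicate 1 pair and nearly all were lower within the replicate 3 pair. The 9 LXR-responsive genes had a median of -0.03 with 0 at that p. Because *Scd1* mRNA moves with feeding and time of day, 10 fasting-responsive genes (median -0.19, 5 higher and 5 lower, with *Cpt1a* at an unadjusted p under 0.05) and 12 clock genes (median -0.05, 0 at that p) were counted too. The part of feeding state in the difference of *Scd1* was not tested.

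Likeness of pattern was measured as Pearson's r on log2(TPM + 0.1) over the 6 mice, among the 10635 genes whose mean reached 1 TPM. The mice share their genotype and their pair, so r is a description here. The genes most like *Fads2* were *Elovl2* (r = 0.992), *Tspan31* (0.987), *Apoh* (0.986), *Tspan12* (0.985) and *Surf4* (0.984), and *Fads1* (0.941) came at rank 32. Those most like *Scd1* were *Sort1* (0.987), *Ccdc73* (0.985), *Bst2* (0.972), *Gpat4* (0.970) and *Rassf3* (0.967), while r between *Scd1* and *Fads2* was 0.42. After the mean of each genotype was taken away, the genes most like *Scd1* were *Cyp3a25* (0.996), *Phf7* (0.984), *Sort1* (0.983), *Ampd1* (0.983) and *Ccdc73* (0.974). On the same centred values the genes most like *Fads2* were *Wdr36*, *Lamb3*, *Srek1*, *Prpf3* and *Sec11a* (0.998 to 0.999). There r with *Fads2* was 0.93 for *Fads1*, at rank 967, so that many other genes were closer to *Fads2*, whereas *Scd1* ran against it with r = -0.90. Within a genotype, the mice with more *Scd1* were thus those with less *Fads2*, although both were lower in *Alb-Cre+* livers in all 3 pairs.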

How the data were processed

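RNA sequencing of liver was analysed from 6 mice. The deposited table, labelled as salmon output, holds TPM per transcript and mouse, as computed by the authors, with a sum of 1000000 per mouse. The study's methods describe STAR and RSEM on GRCm38, and the submitters' processing notes list these beside salmon and DESeq2, so the steps behind the table are not given in the sources used here. The authors' table of DESeq2 comparisons (fold changes, p-values, mean normalised counts) was not used.

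TPM were summed per gene symbol. Genes whose mean TPM reached 0.1 were fitted as log2(TPM + 0.1) with limma 3.58.1 (R 4.3.3) on all 6 mice, genotype as the factor, with a trend in the empirical Bayes variances, Benjamini-Hochberg adjustment and a threshold of 0.01 as in the study. Sex was tested with genotype in the model. Deviations from the genotype mean correlated with r = 0.367, 0.588 and 0.370 between same-numbered mice and -0.444 to 0.171 between others, so the number was taken to pair mice. The sources do not say what it marks, and a block and sex cannot be fitted together. The procedure was tested on simulated data.

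Genes named were the desaturases, their paralogs and nearest neighbours, the genes of each list with the smallest p in each direction (at most a pair, if under 0.05), and the 5 most alike. *Fasn*, *Elovl3*, *Srebf1*, *Degs1*, *Alb* and *Lep* were named after their values were seen. The desaturases, gene lists and markers were chosen with earlier results of these data known. Alternatives were pseudocount, filter, scaling, trend, block, sex and each mouse left out.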

Additional observations from a re-analysis of the deposited data

Results flagged for a closer look

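*Fads6* was singled out because its genotype difference had 1 sign in the female pair and the other sign in both male pairs. The log2 difference was 0.50 in the female pair and -0.26 and -0.30 in the male pairs. Pairs of mixed sign were common, as 12.4% of all genes tested were lower and 11.5% higher in all 3 pairs. How many genes had the female pair alone on 1 side was not counted. For *Fads6* the female minus male difference of the log2 differences was 0.784 (SE 0.34, limma with an interaction term, adjusted p = 0.775 over all genes tested), which did not pass the threshold. It rests on 1 female pair, and sex and replicate number 2 cannot be told apart.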

How the results depend on the processing

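Over 11 alternatives each, the log2 difference ranged from -1.64 to -1.26 for *Fads2*, from -1.26 to -0.74 for *Fads1* and from -2.72 (without *Alb-Cre+* replicate 3) to -1.23 (without *Alb-Cre-* replicate 3) for *Scd1*, all below 0. Among these alternatives the block and sex could not change the difference, because each replicate number and sex was equally present in both genotypes. *Fads3* (-0.09 to 0.52), *Fads6* (-0.16 to 0.14) and *Scd2* (-0.22 to 0.31) took both signs when single mice were left out. The internal-start *Fads2* transcript ranged from 1.17, with a pseudocount of 1 TPM, to 1.47 over 8 alternatives chosen after seeing the data. Also chosen after seeing the data, transcript minima of 0.5 and 5 TPM gave 43 and 5 genes with transcripts on opposite sides, *Fads2* among them in both. The number of genes with an unadjusted genotype p under 0.05 went from 250 to 442 without the filter, to 666 with the replicate block, to 531 with sex as a covariate, and to between 183 and 506 with single mice left out (506 without *Alb-Cre+* replicate 2). With an adjusted p under 0.01 it was 0 to 1 with single mice left out (1 without *Alb-Cre+* replicate 1). The number for sex at that threshold went from 73 to 28 without the filter, to 31 without the trend, and to between 3 (without either female) and 51 with single mice left out (43 without *Alb-Cre+* replicate 1, 32 without *Alb-Cre+* replicate 3). The replicate block changed no call at an adjusted p of 0.01. With 3 mice per genotype the 95% confidence intervals of the log2 difference were wide, from -0.81 to 1.15 for *Fads3* and from -0.87 to 1.03 for *Scd2*, and the depth behind the TPM is unknown.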
